A study of Mus musculus with 58 samples.

Results

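Lungs of male Muta™Mouse given benz(a)anthracene (BaA) at 40 mg/kg-bw/day (the D2 group) were compared with lungs of vehicle controls (the D0 group), to ask which pulmonary transcripts differ after repeated oral exposure to the medium dose of this polycyclic aromatic hydrocarbon. The samples were chosen by the dose group and tissue in their titles. They comprised 10 arrays of the 58 in the series, 5 from D2 (mice 11 to 15) and 5 from D0 (mice 1 to 5). All groups shared the Muta™Mouse transgene, a bacterial reporter used to score mutations. The animals were about 10 weeks old and were gavaged daily for 28 days with BaA in olive oil or with olive oil alone, and lungs were collected 72 h after dosing ended. The lungs of 5 mice at 20 mg/kg-bw/day (D1) and 5 at 80 mg/kg-bw/day (D3) entered the same model and so shared its estimate of the spread. Each array compared lung RNA (Cy5) with a universal reference RNA pooled from mouse cell lines (Cy3), and each value is the log2 ratio of lung to reference after loess normalisation. A group of 5 mice gave 5 values per probe, and mice were the replicates.

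Polycyclic aromatic hydrocarbons bind the aryl hydrocarbon receptor (AhR), a transcription factor that induces the Cyp1 monooxygenases, and these enzymes convert the hydrocarbons to reactive products that bind DNA. DNA damage in turn activates p53, whose targets halt the cell cycle or start repair. Lung RNA is a mixture from alveolar, airway, vascular and immune cells, so a transcript can also differ when the number of cells that carry it differs. In such bulk RNA, fewer cells of a type and less RNA per cell cannot be told apart.

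Markers of lung cell types were detected on these arrays. All 12 alveolar type 2 genes, all 9 alveolar type 1 genes tested and all 12 ciliated cell genes tested were well above background on all 5 arrays of each group. Of 12 club and secretory airway cell genes, 12 were so on all D0 arrays and 10 on all D2 arrays. Detection alone does not identify the tissue, since 7 of the 12 alveolar type 2 genes also passed the background filter in liver and 8 in forestomach. Across probes, D0 arrays correlated with each other with r of 0.917 to 0.981 and D2 arrays with r of 0.955 to 0.982. Of the Cy5 spots, 44.4 to 53.9% on D0 arrays and 47.3 to 54.5% on D2 arrays stood well above background, with the lowest shares of both groups on slide 3, which was scanned on another day than slides 1 and 2. The slides held 2, 1 and 2 arrays of D0 and 2, 2 and 1 of D2. Differences within each slide are therefore given beside the pooled values. Within a slide the arrays of a dose group always sat in the same column (D0 in column 1, D2 in column 3), on all 58 arrays, so dose and array column cannot be told apart. A pair of lungs stood apart in genes of other tissues. As a score, the mean deviation of a list's genes from their mean over all lungs, skeletal muscle genes lay at 5.24 in D0 mouse 5 and at -0.51 to -0.17 in the other D0 mice and all D2 mice. Fat genes lay at 3.76 in D2 mouse 14, at -0.05 to 0.53 in the other D2 mice and at -0.90 to 0.40 in D0. Counts of calls are also given without both of these mice. RNA came from random sections of each lung.

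Some chaperone genes were lower at D2 than in the vehicle lung, and many B lymphocyte genes and some genes of nuclear RNA processing were higher. Of 30382 probes tested, 169 (0.556%) were called differentially expressed by limma, with a Benjamini-Hochberg p no higher than 0.05 and a change of at least 1.5-fold. Of all probes, 147 (0.484%) were called higher and 22 (0.0724%) lower at D2. The called probes with a symbol named 99 genes that were higher and 13 that were lower. Unadjusted p-values under 0.05 numbered 4860. D2 and D0 values did not overlap for 146 of the 169 called probes, against 1397 (4.6%) of all probes tested. All 169 differed in the same direction within each of the 3 slides, and 154 of them were also called with the slide as a block. Where each gene was represented by its brightest probe, 92 of 14522 genes were called higher (0.634%) and 12 lower (0.0826%), and the median change over all genes was 0.03 on the log2 scale. In the reference channel 0 probes were called when Cy3 alone was compared between D2 and D0 by limma, with 1328 at unadjusted p under 0.05.

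The calls depended on how arrays were centred. Directions in the text are those after loess. With median centring of each array in place of loess, 0 probes were called by limma, 4203 had an unadjusted p under 0.05, and the median change of all genes by their brightest probe was 0.49. With median centring plus a slide block, 1183 probes were called, 1168 higher and 15 lower, with a median change of all genes of 0.29. Without D0 mouse 5 and D2 mouse 14 there were 111 calls, of which 94 were among the 169. On slides 1 and 2 alone, with fewer arrays in the fit, there were 103 calls, 67 of them shared.

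**Figure D1:**
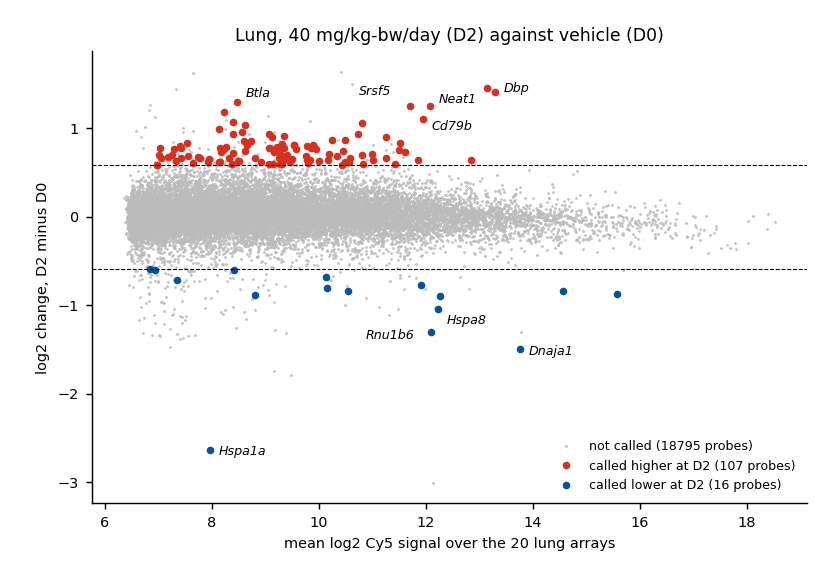
Log2 change between D2 and D0 lungs (vertical axis, n = 5 mice each) against mean log2 Cy5 signal over the 20 lung arrays (horizontal axis), for all tested probes with a gene symbol. Red points were called higher, blue points lower, grey points not called, and dashed lines mark a fold change of 1.5. Hspa1a lay lowest among the called genes at -2.63, and probes of Dbp (1.45 and 1.41), Btla, Srsf5 and Neat1 (1.25 to 1.29) lay highest.

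Chaperone genes were prominent among the decreases. Cytosolic Hsp70 proteins fold other proteins with the help of J-domain co-chaperones of the Hsp40 family, and heat shock factors induce many of these genes through heat shock elements in their promoters. Of the 13 genes called lower, 6 belonged to the chaperone lists, and for all 6 every D2 lung lay below every D0 lung. The groups did not overlap for 146 of the 169 called probes and for 4.6% of all probes tested. Calls and overlap rest on the same values, so here and below such separation adds no support to a call. Among the tested members, 2 of 11 Hsp70 and Hsp110 genes, 2 of 12 Hsp40 genes and 2 of 20 genes of Hsp90, its co-chaperones and the chaperonins were called lower by their brightest probe, and none of them was called higher. Over all genes tested, 0.0826% were called lower. These lists, and the others below, were chosen with earlier results of these data known. Their shares beside those of all genes are therefore descriptions and no independent test. The medians of the 3 lists were -0.19, -0.23 and -0.23, against 0.03 for all genes. Under median centring the medians became positive, at 0.36, 0.35 and 0.38, where that of all genes was 0.49. Within slide 1 the Hsp70 and Hsp90 lists had medians of 0.04 and -0.01.

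Hspa1a (NM_010479), the stress-inducible Hsp70, had the largest change of all called genes. Its log2 ratios were 3.75, 2.76, 3.00, 2.22 and 1.68 in D0 and -0.04, 0.35, -0.03, 0.23 and -0.24 in D2. Every D2 lung lay below the lowest vehicle lung, and the D0 lungs were the more dispersed. The change was -2.63 ± 0.31 (SE), 6.19-fold, with an adjusted p of 0.000154 by limma. Within slides 1 to 3 it was -3.10, -2.91 and -2.19. Hspa1b is nearly identical to Hspa1a and was not tested here, so signal on the Hspa1a probe may include its transcripts.

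Dnaja1 (NM_001164671), an Hsp40 partner of Hsp70, had log2 ratios of 1.94, 1.43, 1.83, 1.40 and 1.01 in D0 and 0.15, 0.19, -0.09, 0.23 and -0.34 in D2. The groups were separated by a wide gap, and the change was -1.49 ± 0.16 (SE, adjusted p of 8.11e-05 by limma). A second, dimmer Dnaja1 probe fell by 0.71 (adjusted p of 0.00761). Hspa8 (NM_031165), the constitutive Hsp70, was at 0.11, -0.23, 0.20, -0.51 and 0.05 in D0 and at -1.39, -0.96, -1.22, -0.86 and -1.18 in D2. All 3 Hspa8 probes were called lower, by -1.05, -0.87 and -0.84. Dnajb1 (NM_018808), the inducible Hsp40, was at 0.81, 0.72, 0.43, 0.03 and 0.66 in D0 and at -0.67, -0.13, -0.22, -0.20 and -0.57 in D2, a change of -0.89 ± 0.13 (SE, adjusted p of 0.00182).

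Chordc1 and Cacybp completed the called chaperone genes. Chordc1 (NM_025844) encodes an Hsp90 co-chaperone and changed by -0.80 ± 0.12 (SE, adjusted p of 0.00221 by limma), with D0 at 0.58 to 1.34 and D2 at -0.06 to 0.27. Cacybp (NM_009786), grouped with the Hsp90 partners, encodes calcyclin-binding protein and changed by -0.77 ± 0.17 (SE, adjusted p of 0.0213), with D0 at -0.08 to 0.59 and D2 at -0.89 to -0.22. Neither gene's groups overlapped, though the gap for Cacybp was narrow. Bag3, a co-chaperone of Hsp70, had a change of -0.58 (adjusted p of 0.00165) and the small heat shock protein gene Hspb8 of -0.54 (adjusted p of 0.00939), both just under the fold threshold. The same held for Dnaja4, an Hsp40 gene, at -0.54 (adjusted p of 0.0189). Hsp90aa1, the inducible Hsp90, had a change of -0.33 ± 0.19 and Hsph1, an Hsp110, of -1.03 ± 0.32, and neither passed (adjusted p of 0.418 and 0.104). Among heat shock factor genes, Hsf1 had a change of -0.02 and Hsf2 of 0.01, both not called, and Hsf4 of 0.43, under the fold threshold with an adjusted p of 0.00835. The 6 called genes also stood without D0 mouse 5 and D2 mouse 14 (6 of 6) and on slides 1 and 2 alone (6 of 6). Cacybp lost its call without D0 mouse 3, D2 mouse 13 or D2 mouse 15. With median centring plus a slide block, 3 of the 6 were called (Hspa1a, Dnaja1 and Hspa8).

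**Figure D2:**
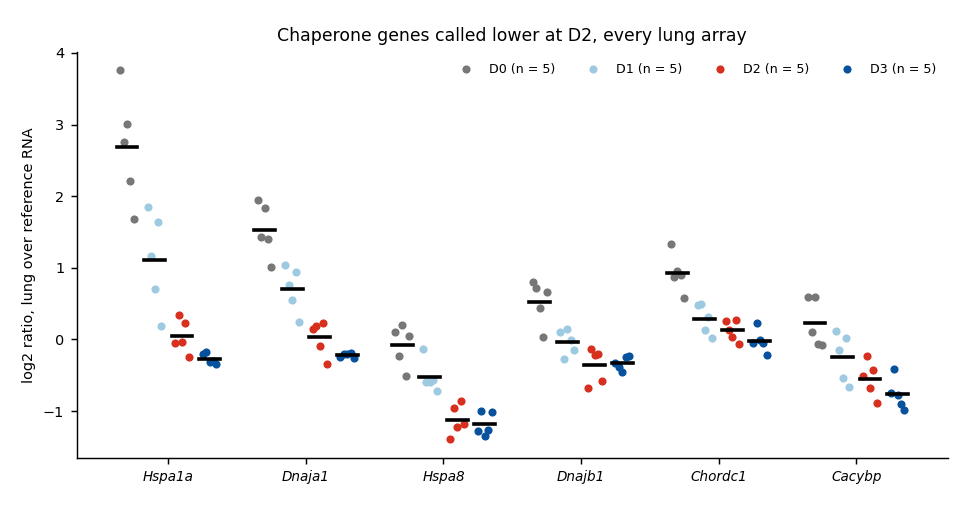
Log2 ratio of lung to reference RNA (vertical axis) for the 6 chaperone genes called lower at D2, with 1 point per mouse, 5 mice in each of D0 (grey), D1 (light blue), D2 (red) and D3 (dark blue), and black bars at the group means. In each gene all D2 points lie below all D0 points, and for Hspa1a the mean falls from 2.68 in D0 to 0.05 in D2.

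Promoters were examined for a shared heat shock element core, since these genes moved together. RefSeq promoters (250 bases before to 50 after a gene's start, assembly GRCm38.p6) were at hand for 7 of 8 heat shock and clock genes, Hspa8 being the exception. The core was searched as GAANNTTC and as TTCNNGAA, each of which reads the same on both strands, and matches of both kinds may share bases. At least 1 of these cores occurs in 15.1% of the 32841 promoters of the same length. Hspa1a, Dnaja1 (at 1 of its 3 annotated starts) and Chordc1 held a core, while these letters were not found in the windows of Dnajb1, Cacybp, Nfil3 and Dbp. The 3 promoters with a core are shown because they belong to genes that fell, written 5′ to 3′ on the gene's strand with the core in capitals. Hspa1a is at chr17:34972107-34972406 (minus strand), Dnaja1 at chr4:40722218-40722517 (plus strand) and Chordc1 at chr9:18292017-18292316 (plus strand). A match describes these letters and is no evidence of binding.
Hspa1a: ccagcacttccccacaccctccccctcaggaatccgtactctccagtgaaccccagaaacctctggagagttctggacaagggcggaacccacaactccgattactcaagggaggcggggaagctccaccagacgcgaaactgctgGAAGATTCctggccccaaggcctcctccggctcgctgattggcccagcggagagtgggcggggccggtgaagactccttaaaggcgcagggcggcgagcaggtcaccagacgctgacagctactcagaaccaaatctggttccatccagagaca
Dnaja1: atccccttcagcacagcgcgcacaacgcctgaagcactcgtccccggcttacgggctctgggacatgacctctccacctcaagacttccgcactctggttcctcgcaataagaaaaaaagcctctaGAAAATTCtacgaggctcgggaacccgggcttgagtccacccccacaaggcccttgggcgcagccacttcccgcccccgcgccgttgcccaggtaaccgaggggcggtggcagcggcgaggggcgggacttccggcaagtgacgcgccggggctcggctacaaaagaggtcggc
Chordc1: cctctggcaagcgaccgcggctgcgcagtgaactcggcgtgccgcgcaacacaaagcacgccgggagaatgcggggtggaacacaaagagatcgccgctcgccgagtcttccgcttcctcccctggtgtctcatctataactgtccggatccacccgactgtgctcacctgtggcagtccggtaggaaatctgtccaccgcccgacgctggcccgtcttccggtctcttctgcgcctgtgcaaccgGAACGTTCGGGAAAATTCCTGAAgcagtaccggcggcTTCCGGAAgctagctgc

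In Hspa1a the single core began at position -104 relative to the start, and in Dnaja1 at position -124. Chordc1 held 2 matches of GAANNTTC and 3 of TTCNNGAA, of which 4 overlapped around the start and the other TTCNNGAA began at position 34. None of the 7 genes held an E-box (CACGTG, found in 7.15% of all promoters) or a D-box (TTANGTAA, 2.32%) in these windows. The core of the AhR response element (GCGTG), which is in 32.4% of all promoters, was found in Dnaja1 at its other starts and in Dnajb1, Chordc1 and Dbp.

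B lymphocyte genes were the list with the most genes called higher of the 45 examined. Since the lists were chosen with earlier results of these data known, this rank is a description. B cells carry an antigen receptor whose signalling chains are encoded by Cd79a and Cd79b, a complement receptor that lowers the threshold of activation, encoded by Cr2, and the survival receptor gene Tnfrsf13c. Of 20 tested B cell genes, 11 were called higher by their brightest probe and 12 by any probe, against 0.634% of all genes, and none was called lower. The median of the list was 0.72, against 0.03 for all genes, and within slides 1 to 3 it was 0.51, 0.83 and 0.70. Under median centring it was 0.85 where that of all genes was 0.49. Lists of other lymphocytes held no call. Of 18 T cell genes none was called in either direction, with a median of 0.13, and of 10 natural killer and cytotoxic cell genes none was called, with a median of 0.20. With 0.634% of all genes called higher and 0.0826% lower, lists of this size would seldom hold a call, so these counts say little.

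Cd79b (NM_008339) was at 0.54, -0.15, 0.39, 0.13 and 0.22 in D0 and at 1.26, 0.94, 1.37, 1.78 and 1.30 in D2, a change of 1.10 ± 0.16 (SE, adjusted p of 0.00125 by limma). Every D2 lung exceeded every vehicle lung. Its partner Cd79a (NM_007655) changed less, by 0.63 ± 0.16 (adjusted p of 0.0365), with D0 at 0.66 to 1.36 and D2 at 1.46 to 2.09. Btla (NM_001037719), an inhibitory receptor of lymphocytes, changed most in the list, by 1.29 ± 0.23 (adjusted p of 0.00552), with D0 at 1.29 to 2.27 and D2 at 2.53 to 3.27.

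Receptors that keep B cells alive or guide them to follicles rose too. Tnfrsf13c (NM_028075), the receptor of the survival factor BAFF, had D0 values of 1.33, 0.78, 1.29, 0.79 and 1.06 and D2 values of 2.13, 1.77, 1.83, 2.56 and 1.93, a change of 0.99 ± 0.16 (SE, adjusted p of 0.00275 by limma). Cxcr5 (NM_007551), the receptor for the follicular chemokine Cxcl13, changed by 0.94 ± 0.18 (adjusted p of 0.00758). The change of Cxcl13 itself was -0.14 ± 0.41 and was not called. Ms4a1, which encodes CD20, changed by 0.86, Bank1, a scaffold of B cell receptor signalling, by 0.86, Spib, a B lineage transcription factor, by 0.81, Fcer2a, the low affinity IgE receptor, by 0.78 and Fcmr, the IgM receptor, by 0.67. For Bank1 the groups overlapped barely, the highest D0 and the lowest D2 value both being 2.87. For Cr2 the called probe gave 0.83 ± 0.15, and a brighter probe gave 0.24 ± 0.11 and was not called. The members not called included Fcrla at 0.99 (adjusted p of 0.0508 by limma), Pax5 at 0.29 and Blk at 0.24, both near background, and Cd22 at -0.07, Vpreb3 at 0.09 and Jchain, a plasma cell product, at -0.06.

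D2 mouse 14, the lung with high fat genes, had the highest value among D2 lungs for 11 of these 12 B cell genes, Btla being the exception. Across the fat list, 8 of 8 tested genes had a change above 0, as had 56.3% of all genes. The median was 1.35, none was called, and the scores were -0.90 to 0.40 in D0 and -0.05 to 3.76 in D2. The adipocyte genes Adipoq and Plin1 had changes of 1.44 and 1.26, and Lep was not tested. Fabp4, which is also in the macrophage and dendritic cell list, had a change of 1.63. Without D2 mouse 14, 9 of the 12 B cell genes were called (not Cd79a, Fcmr and Spib). Without D0 mouse 5 as well, 7 were called, with a median change over the 12 of 0.76 against 0.86. The call of Cd79a was also lost without D0 mouse 2, 3 or 4 or D2 mouse 13 or 15, and that of Spib without D0 mouse 2, 4 or 5 or D2 mouse 11 or 13. On slides 1 and 2 alone 3 were called (Btla, Cd79b and Cr2), and the median was 0.79. From Agilent processed signals 5 of the 12 were called, with a median of 0.83, and from Cy5 alone 7, with a median of 0.77. Over the 22 alternatives the lowest change was 0.20 for Bank1, 0.20 for Fcmr and 0.29 for Cxcr5. The part of fat tissue in the B cell result was not tested.

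**Figure D3:**
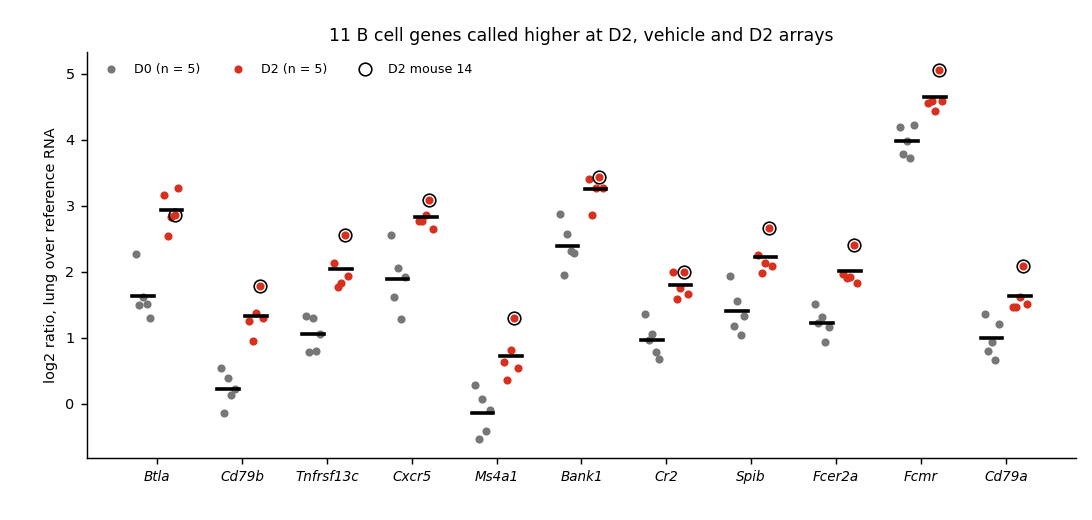
Log2 ratio of lung to reference RNA (vertical axis) for 11 of the B cell genes called higher at D2, with 1 point per mouse for D0 (grey, n = 5) and D2 (red, n = 5), black bars at the group means and a ring around D2 mouse 14. The D2 mean is above the D0 mean in every gene, from 0.23 to 1.33 in Cd79b, and the ringed lung is often the highest.

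A few genes for antigen presentation and lymphocyte traffic rose. H2-Oa and H2-Ob encode both chains of H2-O, an MHC class II molecule found mainly in B cells that restrains peptide loading. H2-Ob (NM_010389) was at 2.44, 2.36, 2.08, 1.87 and 1.80 in D0 and at 3.18, 2.97, 2.92, 3.48 and 3.36 in D2, a change of 1.07 ± 0.17 (SE, adjusted p of 0.00231 by limma). A second H2-Ob probe, brighter, was also called (0.86). H2-Oa (NM_008206) changed by 0.93 ± 0.15 (adjusted p of 0.00228), with D0 at 1.27 to 1.74 and D2 at 2.06 to 2.80. They were the 2 of 17 MHC and antigen presentation genes that were called, against 0.634% of all genes called higher, and the list had a median of 0.13. The classical class II genes had changes of -0.05 (H2-Aa) and 0.02 (H2-Eb1), both uncalled. Of 23 chemokine and receptor genes, Ccr6 (0.73 ± 0.14) and Ccr7 (0.71 ± 0.18), which direct lymphocytes and dendritic cells, were called higher, 2 genes against the same background share, and none was called lower. The call of Ccr7, whose adjusted p was 0.0473, was lost on leaving out any 1 of the 10 mice and with the slide as a block (adjusted p of 0.0532 by limma). Among the other large increases were Clec2d (NM_053109), a lectin ligand of a natural killer cell receptor, at 1.06 ± 0.18, and Lime1 (NM_023684), a lymphocyte adaptor protein, at 0.92 ± 0.15, with adjusted p of 0.00367 and 0.00393.

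Transcripts that stay in the nucleus or act in splicing differed in both directions. Neat1 (NR_003513), the long RNA that scaffolds nuclear paraspeckles, was at -1.21, -1.55, -1.58, -1.44 and -1.30 in D0 and at -0.15, -0.38, -0.41, -0.18 and 0.28 in D2. All D2 lungs were above all vehicle lungs, and the change was 1.25 ± 0.30 (SE, adjusted p of 0.0354 by limma). The call was lost on leaving out any 1 of 9 of the 10 mice, the exception being D0 mouse 1, with changes of 1.13 to 1.31. Srsf5 (NM_001079695), an SR splicing factor, was at -1.23, -1.26, -1.23, -0.96 and -1.38 in D0 and at 0.27, -0.38, 0.05, -0.08 and 0.34 in D2, a change of 1.25 ± 0.13 (adjusted p of 5.37e-05). Srsf5 was the 1 called gene among 13 SR factors, whose median was -0.09 (0.47 under median centring). Rnu1b6 (NR_004413), a U1 small nuclear RNA, moved the other way, from 0.29, 0.51, 0.39, 0.83 and 0.85 in D0 to -0.28, -0.62, -0.84, -1.24 and -0.64 in D2, a change of -1.30 ± 0.25 (adjusted p of 0.00818). That call was lost without D0 mouse 5 and D2 mouse 14 together (-1.10) and on slides 1 and 2 alone (-1.15). U1 genes are near-identical copies, so the probe may read several of them. Of 6 small nuclear RNA genes all had a change below 0, where 56.3% of all genes had one above 0. The median was -0.57 (-0.03 under median centring), and the other 5 were not called.

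Some kinases and helicases of nuclear RNA processing rose by modest amounts. Of 26 genes in this list, 6 were called higher, against 0.634% of all genes, and none lower, with a median of 0.21. This list too was chosen with earlier results of these data known. Clk4 (0.74 ± 0.12) and Clk1 (0.64 ± 0.13) encode kinases that phosphorylate SR proteins, and Ccnl2 (0.64 ± 0.15) a cyclin of the splicing machinery. Ddx5 (0.64 ± 0.08), an RNA helicase, was at 0.56 to 0.78 in D0 and 1.17 to 1.51 in D2, a small change between tight groups (adjusted p of 0.000542 by limma). Pnisr (0.76 ± 0.17) encodes a protein of nuclear speckles. Ddx5 had another called probe (0.75) and another that was not called (0.04), and a second Ccnl2 probe (-0.05) was not called. Leaving out D0 mouse 5 (Ccnl2 and Pnisr were then among those not called) or D2 mouse 15 (not Ccnl2, Clk1 and Pnisr) left 3 of the 6 genes called. Ccnl2 was also not called on leaving out D0 mouse 2, 3 or 4 or D2 mouse 11, 12 or 13, nor was Pnisr on leaving out D0 mouse 2 or 4 or D2 mouse 13. Without D0 mouse 5 and D2 mouse 14, 4 were called, and on slides 1 and 2 alone 2 (Clk4 and Ddx5).

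Genes driven by the circadian clock gave a call in each direction. Dbp, Tef and Hlf are clock output transcription factors that peak together, Nfil3 competes with them for the same DNA element, and Arntl is the clock's activator with the opposite phase. Dbp (NM_016974) was at 0.48, 1.13, -0.68, 0.81 and -0.43 in D0 and at 1.11, 1.96, 1.61, 1.38 and 2.30 in D2. These groups overlapped slightly, and the change was 1.41 ± 0.34 (SE, adjusted p of 0.0348 by limma), with 0.73, 2.18 and 2.11 within slides 1 to 3. It was the 1 called gene of 11 clock output genes. All 11, which share a rhythm, had a change above 0, as had 56.3% of all genes. Their median was 0.49, with medians of 0.16, 0.77 and 0.99 within the slides. The scores of this list overlapped between groups, at -0.85 to 0.03 in D0 and -0.28 to 0.57 in D2. Nfil3 (NM_017373) was at -1.46, -1.95, -1.25, -1.71 and -1.48 in D0 and at -2.28, -2.52, -2.52, -2.40 and -2.55 in D2, a change of -0.88 ± 0.15 (adjusted p of 0.0049). Arntl had a change of -0.66 ± 0.32 that was not called. The call of Dbp was lost without D0 mouse 3 or 5 or D2 mouse 12, 13 or 15. Cirbp (NM_007705), a cold-inducible RNA-binding protein, changed by 0.84 ± 0.15 (adjusted p of 0.00552), with D0 at -0.71 to -0.21 and D2 at -0.17 to 0.69, while Rbm3, the other cold-inducible gene of its list, had a change of -0.07 ± 0.12. The hour at which each lung was taken is not given in the sources used here.

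**Figure D4:**
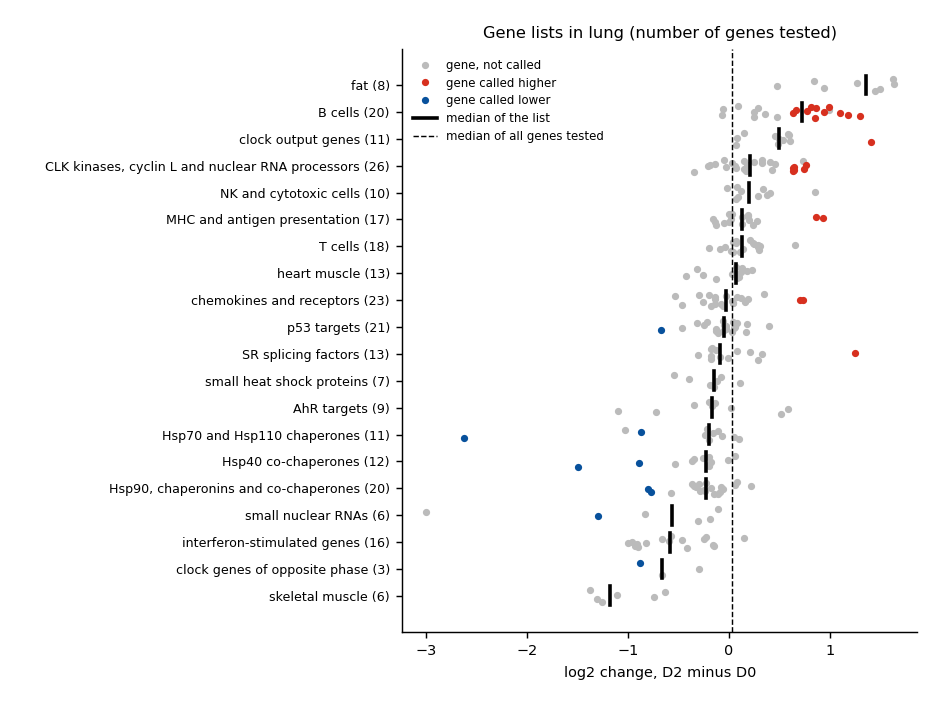
Log2 change between D2 and D0 (horizontal axis) of every tested gene in 20 lists, each list on its own line with its number of tested genes. Red points were called higher, blue points lower and grey points not called, black bars mark the list medians and the dashed line the median of all genes tested (0.03). The B cell list (median 0.72) holds most red points, the Hsp70 list holds the blue point furthest to the left (Hspa1a, -2.63), and the fat (1.35) and skeletal muscle (-1.18) medians have no called gene.

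Targets of AhR and p53, the pathways most tied to this class of hydrocarbon, gave a single call. Over all genes tested, 0.634% were called higher and 0.0826% lower, so lists of this size would seldom hold a call. None of 9 tested AhR battery genes was called, and their median was -0.17 (0.17 under median centring). Cyp1a1, the monooxygenase most strongly induced by AhR, was at 3.22, 2.89, 2.84, 1.76 and 2.42 in D0 and at 1.21, 3.40, 1.20, 0.78 and 1.02 in D2. One D2 lung lay above all vehicle lungs and the other 4 below them, and the change of -1.10 ± 0.89 (SE) was not called (adjusted p of 0.592 by limma). At D1 the 5 lungs were at 0.73, 3.92, 6.06, 6.87 and 0.89, and they reached both below and above all D0 lungs. Ahrr, the AhR repressor gene and itself an AhR target, was at -0.75 to -0.39 in D0 and -0.20 to 0.13 in D2, a change of 0.52 ± 0.14 whose adjusted p (0.0504) and fold both missed the thresholds. It was well above background on 1 of 5 D0 arrays and 5 of 5 D2 arrays. Cyp1b1 had a change of 0.59 ± 0.33, Nqo1 of -0.35 ± 0.15 and Tiparp of -0.14 ± 0.10, all uncalled. Aldh3a1 was also uncalled at -0.72 ± 0.34, and for it D0 mouse 5 stood at 3.05 and the other vehicle lungs at 0.53 to 0.95. Ahrr and Cyp1b1 were each called higher in 1 of 22 alternative settings.

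Of 21 p53 targets, Cdkn1a (NM_007669), the cell cycle inhibitor p21, was called, and it was lower at D2. Its log2 ratios were -0.49, -0.46, -0.88, -0.86 and -0.24 in D0 and -1.25, -1.09, -1.26, -0.93 and -1.78 in D2, a change of -0.68 ± 0.16 (SE, adjusted p of 0.0324 by limma). The groups met closely, at -0.88 in D0 and -0.93 in D2, and the call was lost in 12 of 22 alternative settings, among them on leaving out D0 mouse 1, 2 or 5 or D2 mouse 11, 13 or 15. A second, dim Cdkn1a probe had a change of 0.03. The list had a median of -0.05 (0.50 under median centring). Mdm2, the p53 antagonist, was at 0.06 ± 0.07, Ccng1 at -0.06 ± 0.13, Bax at 0.17 ± 0.11 and Phlda3 at -0.03 ± 0.11, none of them called. Plk2, at 0.39 ± 0.12, was not called either but was called higher in 1 of 22 alternative settings. Of 18 nucleotide excision repair genes, whose products remove bulky DNA adducts, none was called and the median was 0.08. Their damage sensors Ddb2 (0.51 ± 0.12) and Xpa (0.34 ± 0.07) had adjusted p of 0.0326 and 0.00848 by limma but were under the fold threshold. Of 17 tested Nrf2 and phase II genes none was called either, with a median of -0.05. With 0.634% of all genes called higher and 0.0826% lower, an absence of calls in lists this short says little about them.

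Interferon, housekeeping and heart muscle lists held no called gene, where 0.634% of all genes were called higher and 0.0826% lower. The 16 interferon-stimulated genes had a median of -0.58 with 15 changes below 0, where 56.3% of all genes had one above 0. Examples were Oas2 at -0.96 ± 0.33 and Ifit1 at -0.93 ± 0.29, and none was called. Within slides 1 to 3 the median was -0.10, -0.93 and -0.98, and under median centring it was 0.03. All 24 cytosolic ribosomal protein genes tested lay within -0.24 and 0.02, and the 23 respiratory chain genes within -0.12 and 0.17. Heart muscle genes, whose median was 0.07, differed by 1.38, 1.18 and -2.73 within the 3 slides. Named by size of change alone were Sap25 (0.95 ± 0.16), a subunit of the Sin3 co-repressor complex, Thbs1 (-0.84 ± 0.21), an extracellular matrix glycoprotein, and Pak3 (-0.60 ± 0.14), a kinase whose probe was near background (3 of 5 D0 arrays and 4 of 5 D2 arrays). The call of Thbs1, with an adjusted p of 0.0452 by limma, was lost in 18 of 22 alternative settings, and was kept on leaving out D0 mouse 1 or 5 but no other mouse. That of Pak3 was lost without D0 mouse 2 or 5 or D2 mouse 11, 12 or 13, and with the slide as a block, where its change of -0.54 was under the fold threshold.

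Beyond the genes named, 70 more genes were called higher, by 0.59 to 1.03 with a median of 0.67. For 57 of them every D2 lung exceeded every D0 lung. The groups did not overlap for 146 of all 169 called probes and for 4.6% of all probes tested. Calls and overlap rest on the same values, so the count of 57 adds no support. The other 2 genes called lower, Cobl (-0.60) and Gpr141b (-0.59), were named here after their values were seen and their groups overlapped. A further 46 called probes had no symbol in the gene table, 40 of them higher. Of these, 19 higher and 1 lower were probes designed to genomic intervals.

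Few probes separated the medium dose from its neighbours. Against D2, D3 differed in 0 probes (0%) by limma, with 1147 at unadjusted p under 0.05. Against D1, D2 differed in 30 probes (0.0987%), 28 of them higher at D2, with 3810 at unadjusted p under 0.05. That count was 0 without D1 mouse 7, 3 without D1 mouse 9, 5 without D2 mouse 15, 6 without D2 mouse 11, 7 without D2 mouse 13, 15 without D1 mouse 8 and 87 without D1 mouse 6. The comparisons with D0 share the vehicle lungs, so their values are set side by side. Of 30382 probes, 0 were called by limma between D1 and D0 and 572 between D3 and D0. None of the D1 values that follow was therefore called. Hspa1a differed from D0 by -1.57 at D1, -2.63 at D2 and -2.95 at D3, and Dnaja1 by -0.82, -1.49 and -1.74. Cd79b differed by 0.45, 1.10 and 0.80, and Ms4a1 by 0.43, 0.86 and 0.37, its D3 value being uncalled (adjusted p of 0.218 by limma). Srsf5 differed by 0.51, 1.25 and 1.53, Cirbp by 0.35, 0.84 and 1.29, and Neat1 by -0.15, 1.25 and 1.60. Over the B cell list the medians were 0.34, 0.72 and 0.50, and over clock output genes 0.14, 0.49 and 0.86. Among the named genes, Clec2d (1.07), Sap25 (0.92), Srsf5 (0.74), Clk4 (0.70) and Nfil3 (-0.80) had a called difference between D2 and D1, at adjusted p of 0.0168 to 0.0325 by limma. Over all probes the share was 0.0987%. The named genes were chosen for their change from D0, and the same D2 lungs enter this difference.

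The lung change at D2 was set against that in liver and forestomach of the same mice, measured on other arrays (the forestomach of D0 mouse 5 was not analysed here). Several nuclear and splicing transcripts that were higher in lung were lower in liver. Neat1 changed by -2.47 ± 0.36 (SE) in liver, and the lung-minus-liver difference was 3.72 ± 0.43 (adjusted p of 3.86e-08 by limma). Ccnl2 changed by -1.54 in liver with a difference of 2.18, and Pnisr by -1.09 with a difference of 1.85. Rnu1b6, lower in lung, was higher in liver by 1.5 ± 0.31, a difference of -2.80 ± 0.38 (adjusted p of 8.34e-07). Lime1 changed by -1.0 in liver with a difference of 1.92. Across probes tested in both tissues, 481 of 21864 (2.2%) had a called difference between the D2 effects, and this was so for 79 of the 117 lung calls that were tested in liver, whose own lung change chose them. Without D0 mouse 2 the count was 313. Of the 99 that were higher in lung, 78 had a liver change below 0, where 52.4% of all probes did, and 27 were called lower in liver, against 0.544% of all probes.

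Chaperone genes gave a mixed picture in liver. Dnajb1 fell in liver by 0.73 ± 0.12, close to its lung value, with a difference of -0.16 ± 0.21 that was not called. Dnaja1 had a liver change of -0.36 ± 0.18 and Hspa8 of -0.11 ± 0.19, neither called, with lung-minus-liver differences of -1.13 ± 0.29 (adjusted p of 0.0171 by limma) and -0.94 ± 0.25 (adjusted p of 0.0184). Hspa1a had changes of -1.04 ± 0.26 in liver and -1.19 ± 0.51 in forestomach, neither called, and neither difference from lung was called (adjusted p of 0.0955 and 0.593). In forestomach 27 of 28434 probes (0.095%) had a called difference from lung. Without D2 mouse 14 this count was 4, without D2 mouse 15 it was 10, without D0 mouse 2 it was 12, and without D0 mouse 1, 4 or 5 it was 15 or 16. Among them were H2-Oa (difference of 0.94 ± 0.18), Clec2d (1.57 ± 0.31), Sap25 (1.11 ± 0.20) and Lime1 (1.07 ± 0.21). Of 20 B cell genes, 12 were tested in forestomach, with a median D2 change of -0.10, and 10 in liver, with a median of 0.07. For Srsf5 the forestomach change was 0.82 and its difference from lung, 0.43 ± 0.22, was not called. A difference that was not called does not show that the tissues responded alike.

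**Figure D5:**
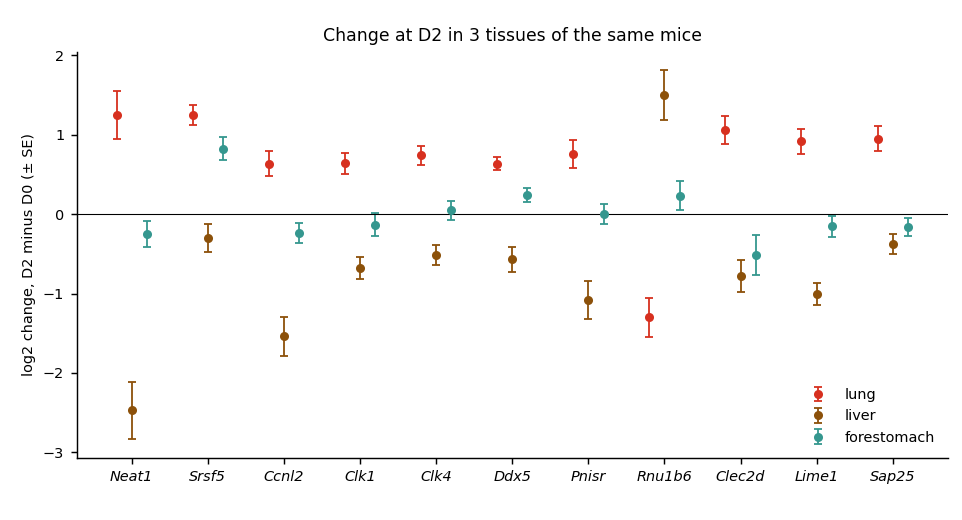
Log2 change between D2 and D0 (vertical axis, bars are standard errors) in lung (red), liver (brown) and forestomach (green) for 11 genes called in lung, with 5 mice a group except forestomach D0 (4). Neat1 lies at 1.25 in lung and -2.47 in liver, Rnu1b6 at -1.30 and 1.5, and Srsf5 at 1.25 in lung and 0.82 in forestomach.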

How the data were processed

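Lung, liver and forestomach RNA (Cy5) and a universal mouse reference RNA (Cy3) were hybridised to 58 two-colour Agilent arrays without dye swaps. The deposited scanner files give the intensity of each spot, extracted with Feature Extraction 10.7.3.1 per the file headers. Median signals were used without background correction, as in the authors' methods, and log2 ratios of Cy5 to Cy3 were loess normalised within each array. The deposited table of log2 ratios, which the authors normalised with LOWESS, served as an alternative (r of 0.996 to 0.998 with the values used here). Of 62976 spots, 59305 were gene spots of 55681 probes. Outlier spots (0.48% in lung) were left out, 432 probes with several spots were averaged, and 26413 probes matched 20018 symbols of a RefSeq gene table (GRCm38.p6). Probe coordinates were not used here.

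Tested were probes that stood well above background (Cy5) on 4 or more lung arrays (30382 probes, 14522 genes, 3691 of them with several probes), with limma 3.58.1 in R 4.3.3, with all 4 dose groups in 1 model. The authors used MAANOVA, which was not run here. A call required a change of at least 1.5-fold with a Benjamini-Hochberg p no higher than 0.05. Named genes were up to 12 per direction with the largest change among called genes whose groups did not overlap, all called members of the lists, and all AhR and p53 targets. A pair of list members is not reported here by name. Genes in lists were represented by their brightest probe. The gene lists and the comparison were chosen with earlier results of these data known. Lung, liver and forestomach effects were compared as an interaction in a joint model. The same mouse number is the same animal per the labels. Deviations from group means correlated between lung and liver with r of -0.0315 to 0.192 (19 mice, 13 over 0.1) and between lung and forestomach with r of -0.119 to 0.211 (19 mice, 9 over 0.1).

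Alternatives were the deposited table, median centring, the slide as a block, no minimum fold, normexp (offset 50, on median signals since mean signals were not used here), Agilent processed signals, Cy5 alone scaled to its 75th percentile, the 10 arrays alone, looser and stricter filters, and leaving out each mouse. Leaving out D0 mouse 5 with D2 mouse 14, and using slides 1 and 2 alone, were chosen after seeing the data. The number of arrays limits the precision. No array pair was identical, 0 columns were left unmapped, and the tests were tested on simulated data. Promoters were searched with Python 3.11.15 and figures drawn with matplotlib 3.10.9.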

Additional observations from a re-analysis of the deposited data

Results flagged for a closer look

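Of 116 groups of 5 values tested with Dixon's ratio of the gap to the range, 5 held a lung that stood apart, where chance gives about 1 group in 20. D2 mouse 14 stood highest for Cd79a (ratio of 0.738), Fcer2a (0.770) and Fcmr (0.751) and for the score of fat genes (0.848). D0 mouse 5 stood highest for the score of skeletal muscle genes (0.940). The part of these tissues in the B cell values was not tested.

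The D2 effect differed between lung and liver, by an interaction term at an adjusted p of at most 0.05 (limma) and a 1.5-fold difference, for 13 of the 25 named genes tested in both. The lung-minus-liver differences on the log2 scale were 3.72 for Neat1, 2.18 for Ccnl2, 1.92 for Lime1, 1.85 for Pnisr, 1.83 for Clec2d, 1.55 for Srsf5, 1.33 for Sap25, 1.32 for Clk1, 1.25 for Clk4 and 1.20 for Ddx5. They were -2.80 for Rnu1b6, -1.13 for Dnaja1 and -0.94 for Hspa8. The D2 effect differed between lung and forestomach for 4 of 32 named genes tested in both, by 1.57 for Clec2d, 1.11 for Sap25, 1.07 for Lime1 and 0.94 for H2-Oa. These genes were chosen for their lung change, which enters each difference.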

How the results depend on the processing

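None of the 40 named genes that were called changed direction in any of the 22 alternatives that gave a value, and all 40 lost their call under median centring. Uncalled genes of the AhR and p53 lists, such as Nqo1 and Ccng1, did change sign between settings. Ahrr, Cyp1b1 and Plk2 each gained a call in 1 setting. The count of 169 calls between D2 and D0 became 0 with median centring, 1183 with median centring plus a slide block, 665 without a minimum fold, 376 from Agilent processed signals, 110 from Cy5 alone, 111 without D0 mouse 5 and D2 mouse 14, and 103 on slides 1 and 2 alone, and it ranged from 128 to 198 over the mice left out. The 30 calls between D2 and D1 became 0 with median centring, 53 with the slide as a block and 64 without a minimum fold, and ranged from 0 to 87 over the mice left out. For the lung-minus-liver difference, 481 calls became 53 with median centring and 761 without a minimum fold, and ranged from 313 to 603. For forestomach, 27 calls became 1 with median centring and ranged from 4 to 31. The causes were not tested. The 0 calls between D3 and D2 stood in every alternative run (limma, 392 to 1693 probes at unadjusted p under 0.05).

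No paired analysis was possible because D0 and D2 share no mouse number. Between tissues, with the mouse as a replicate block, the lung-minus-liver count was 512 and the lung-minus-forestomach count 33. Dim probes limit what can be seen of genes such as Blk and Pax5, which were not well above background on all arrays.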

Other observations

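Lists of lung cell types held no called gene, where 0.634% of all genes were called higher and 0.0826% lower. The median changes were 0.00 for 12 alveolar type 2 genes, -0.04 for 9 alveolar type 1 genes, -0.11 for 12 club and secretory cell genes, 0.04 for 12 ciliated cell genes, 0.07 for 14 endothelial genes, 0.03 for 18 collagen and fibroblast genes and 0.06 for 7 smooth muscle genes, beside 0.03 for all genes. Among secretory genes Bpifa1 had a change of -1.79 ± 1.13 and Reg3g, an antimicrobial lectin, of -1.07 ± 0.83, both with wide errors. Etv5, a transcription factor of alveolar type 2 cells, had a change of 0.53 ± 0.13 with an adjusted p of 0.0376 by limma, under the fold threshold. The 14 macrophage and dendritic cell genes had a median of 0.02, the 11 neutrophil genes of -0.01 and the 6 red blood cell genes of -0.06, with no calls.

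Stress and growth lists were also without calls, apart from Cdkn1a, which is a member of the glucocorticoid list (13 genes, median of -0.25) as well as of the p53 list. Over all genes, 0.634% were called higher and 0.0826% lower. The medians were -0.15 for 15 endoplasmic reticulum stress genes, -0.15 for 7 small heat shock proteins, -0.14 for 15 immediate early genes, -0.15 for 19 cell cycle genes and 0.03 for 13 Bcl2 family genes. Xbp1, a regulator of the unfolded protein response and of plasma cells, had a change of -0.41 ± 0.08 with an adjusted p of 0.0105 by limma, under the fold threshold. Metabolic lists had medians of -0.08 for 8 Cyp2 and Cyp3 family genes, 0.02 for 17 cholesterol synthesis genes and 0.11 for 15 PPAR targets. Cpt1a, which brings fatty acids into mitochondria, had a change of 0.42 ± 0.08 with an adjusted p of 0.00686, also under the fold threshold.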
